A study of Mus musculus with 6 samples.

Results

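DNA replication and nucleotide supply genes code for the proteins that mark and open replication origins, copy the DNA, join the copied pieces, repack them into chromatin and make the deoxynucleotides. They were listed by symbol, 41 in all, and each was read through the probe set that carries that symbol alone and has the highest mean over the 6 arrays. By this rule 40 of the 41 listed genes were measured, out of 18194 genes on the array, and Chaf1a, the large subunit of chromatin assembly factor, was not analysed here. The series holds 6 Affymetrix arrays of sorted bone marrow cells of adult mice, 2 arrays in each of 3 groups. WT LSK FLT3- cells were lineage-negative, SCA1-positive and KIT-positive without surface FLT3, from C57bl/6 mice, and are the fraction that holds the hematopoietic stem cells. WT LMPP, the lymphoid-primed multipotent progenitors, had the same lineage, SCA1 and KIT gate and high FLT3, from C57bl/6 mice. E2A-KO LMPP came through the LMPP gate from E2A-KO mice on that background. E2A names the E protein transcription factors made from Tcf3, which bind DNA at E-boxes; the allele, the pooling of mice and their exact ages are not given in the sources used here. Nothing says that the 2 arrays of a group come from separate mice or sorts, so p-values measure only how far these arrays lie apart, and that spread may be technical.

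A cell replicates its genome once per division by loading the MCM helicase at origins in G1 and firing it in S phase. Loading needs the origin recognition complex, Cdc6 and Cdt1, and geminin blocks it outside G1. Most of these genes are switched on before S phase by the E2F factors, which the RB proteins hold in check, and hematopoietic stem cells are known to be mostly out of cycle while progenitors divide more often. In a bulk sample a lower share of cycling cells and less RNA per cell cannot be told apart.

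Promoter sequences were read for the genes that passed the test in the wild-type comparison under both scalings of the arrays described below, and for Mcm6, chosen after its sequence was seen because it held the most E2F motifs. Each window covers 250 bases before and 50 after the gene start in RefSeq (GRCm38.p6), written 5′ to 3′ on the strand of the gene, and capitals mark an E2F motif (TTTCCCGC, TTTCGCGC, TTTGCCGC or TTTGGCGC, on either strand) or a CCAAT box (CCAAT, which reads ATTGG on the other strand). The windows are Mcm2 (chr6:88898731-88899030, minus strand), Pola1 (chrX:93632106-93632405, minus strand), Chaf1b (chr16:93883651-93883950, plus strand), Rrm2 (chr12:24708004-24708303, plus strand), E2f2 (chr4:136172024-136172323, plus strand) and Mcm6 (chr1:128359656-128359955, minus strand).
Mcm2: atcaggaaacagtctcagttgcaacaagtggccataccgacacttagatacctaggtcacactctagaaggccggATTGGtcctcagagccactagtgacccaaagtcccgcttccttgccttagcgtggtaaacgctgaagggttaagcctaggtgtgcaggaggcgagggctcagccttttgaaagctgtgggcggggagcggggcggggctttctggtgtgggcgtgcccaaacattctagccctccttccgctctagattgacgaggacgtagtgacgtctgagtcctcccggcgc
Pola1: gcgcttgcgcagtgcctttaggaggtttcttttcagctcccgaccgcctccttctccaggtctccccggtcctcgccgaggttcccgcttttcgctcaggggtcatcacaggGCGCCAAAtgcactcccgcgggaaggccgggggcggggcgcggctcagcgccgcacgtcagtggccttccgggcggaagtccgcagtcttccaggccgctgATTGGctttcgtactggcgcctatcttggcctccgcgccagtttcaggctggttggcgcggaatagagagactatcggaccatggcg
Chaf1b: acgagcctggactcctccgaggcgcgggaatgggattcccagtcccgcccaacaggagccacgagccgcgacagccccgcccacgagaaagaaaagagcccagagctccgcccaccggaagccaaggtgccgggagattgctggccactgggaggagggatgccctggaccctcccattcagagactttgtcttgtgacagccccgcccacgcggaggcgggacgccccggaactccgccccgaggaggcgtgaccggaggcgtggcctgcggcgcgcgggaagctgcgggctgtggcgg
Rrm2: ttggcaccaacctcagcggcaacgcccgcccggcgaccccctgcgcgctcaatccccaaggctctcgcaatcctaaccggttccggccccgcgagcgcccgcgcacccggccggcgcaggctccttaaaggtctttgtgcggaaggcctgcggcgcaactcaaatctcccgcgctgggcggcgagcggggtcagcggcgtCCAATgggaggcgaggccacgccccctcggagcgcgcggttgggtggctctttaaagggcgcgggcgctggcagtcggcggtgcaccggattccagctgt
E2f2: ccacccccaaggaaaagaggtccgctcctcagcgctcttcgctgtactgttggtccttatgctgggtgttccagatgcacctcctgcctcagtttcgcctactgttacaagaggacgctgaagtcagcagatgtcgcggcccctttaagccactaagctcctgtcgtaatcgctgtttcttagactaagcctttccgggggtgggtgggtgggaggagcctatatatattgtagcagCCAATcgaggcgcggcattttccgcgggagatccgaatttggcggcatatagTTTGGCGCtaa
Mcm6: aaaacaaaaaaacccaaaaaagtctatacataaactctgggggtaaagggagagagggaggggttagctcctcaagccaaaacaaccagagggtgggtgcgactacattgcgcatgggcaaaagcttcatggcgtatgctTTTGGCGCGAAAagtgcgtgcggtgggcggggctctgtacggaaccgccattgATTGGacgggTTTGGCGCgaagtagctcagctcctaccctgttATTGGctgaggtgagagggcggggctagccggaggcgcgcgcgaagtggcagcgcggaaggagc
Mcm6 held 3 E2F motifs, of which the pair from base -110 overlap on opposite strands, and CCAAT boxes from bases -57 and -14, counted from the gene start. Pola1 held an E2F motif from base -138 and a CCAAT box from base -37, and E2f2 held an E2F motif from base 40 after the start and a CCAAT box from base -13. Mcm2 and Rrm2 held a CCAAT box and none of the E2F spellings, and Chaf1b held neither.

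Of the 40 measured genes 33 had a window in the table, and no window was used for Gmnn, Mcm4, Gins1, Gins2, Prim2, Pole and Rfc2. An E2F motif lay in the first listed window of 12 of the 33 (36.4%), which were Orc1, Cdc6, Cdt1, Mcm3, Mcm5, Mcm6, Mcm7, Pola1, Pole2, Pold1, Rfc3 and E2f2. The same letters lay in 3.38% of the windows of 14453 tested genes. The CCAAT box lay in 19 of 33 (57.6%) against 38.2% of tested genes, and the letters TTTGAA, searched on both strands as the core of the cell cycle homology region, in 4 of 33 (12.1%) against 13.4%. The genes with an E2F motif had a median difference between WT LMPP and WT LSK FLT3- of -0.32 (log2, 12 genes), and those without one -0.29 (21 genes), so the 2 sets lay close together. A match of letters is a description of the window and shows no binding.

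In the values below, the knockout stands for E2A-KO LMPP. Levels are log2 of the deposited intensity, and a change is a difference between group means of such levels. The 40 genes averaged between 4.32 and 12.02 over the 6 arrays, with a median at percentile 88.9 of all genes tested. Of these genes 35 lay above a level of 6. The other 5 (Orc1, Tyms, Rfc3, E2f1 and E2f2) lay lower, where the arrays compress differences. The median SD between the 2 arrays of a group was 0.0981 in WT LMPP, 0.0820 in the knockout and 0.0488 in WT LSK FLT3-. The value distributions of the fractions differed: the upper quartile of all probe sets was 5.78 to 5.82 on the LMPP arrays and 6.13 to 6.15 on the LSK FLT3- arrays, and the median was 4.01 to 4.04 against 3.90 to 3.91. Each comparison is therefore given for the deposited values and after quantile normalization, which gives the 6 arrays 1 distribution. The difference between 3' and 5' control probe sets of Actb, a sign of RNA length after amplification, was 3.77 to 3.95 (log2) on LMPP arrays and 3.45 to 3.55 on LSK FLT3- arrays. That of Gapdh was 3.09 to 3.35 and 3.25 to 3.44, so its ranges overlapped, and the part of RNA length in the results was not tested. Tcf3, the targeted gene, stood at 6.93 and 6.86 in WT LMPP, 6.80 and 6.53 in the knockout, and 7.27 and 7.41 in WT LSK FLT3-, and the position of its probe set relative to the deleted part is not given, so it does not check the labels. Of the gate markers, Flt3 followed the labels in direction: it averaged 10.80 in WT LMPP, 10.73 in the knockout and 8.81 in WT LSK FLT3-. Kit averaged 8.98, 8.66 and 10.22 in the same order, so its RNA differed although the groups shared the KIT-positive gate. Ly6a, which codes for SCA1, was not analysed here.

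**Figure D1:**
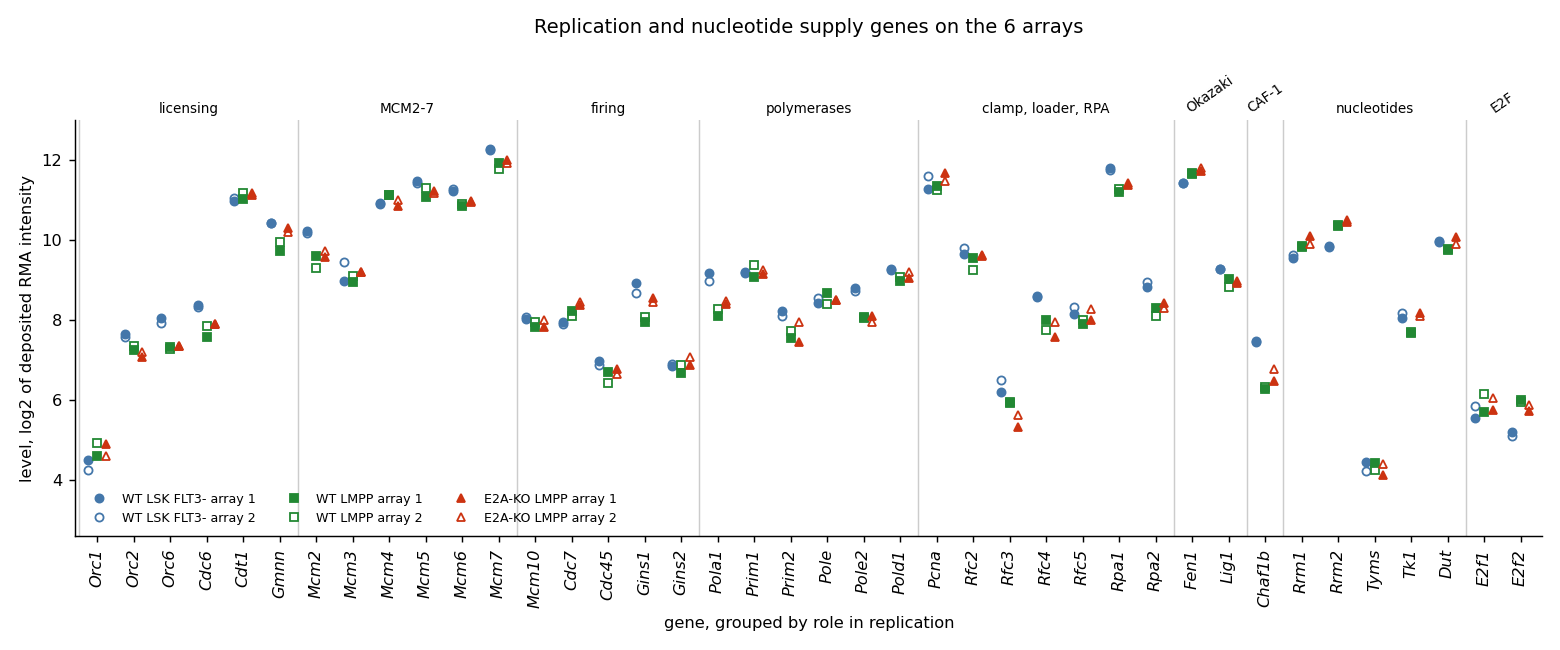
Level (log2 of the deposited intensity, vertical axis) of the 40 measured genes on each of the 6 arrays, ordered by role along the horizontal axis; symbols mark group and array. Chaf1b lies at 7.46 and 7.48 on the WT LSK FLT3- arrays and at 6.29 and 6.32 on the WT LMPP arrays, E2f2 runs the other way, and most genes differ less between groups.

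The first comparison, WT LMPP against WT LSK FLT3-, shows how the replication genes differ between the FLT3-negative and the FLT3-high wild-type fraction. In the deposited values 15 of the 40 genes fell and 2 rose in WT LMPP, with 23 not passing (limma, adjusted p under 0.05). The falls included genes of origin licensing, unwinding, synthesis and chromatin assembly, such as Orc6 (-0.69), Cdc6 (-0.64), Mcm2 (-0.75), Pola1 (-0.89), Rpa2 (-0.70) and Chaf1b (-1.17). The rises were Rrm2 (0.53), the regulated subunit of ribonucleotide reductase, and E2f2 (0.83), an activating E2F factor. Over all genes tested 23.7% fell and 10.4% rose.

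The count of falls depends on the scaling. After quantile normalization 3 of the 40 genes fell and 5 rose, against 10.1% and 9.1% of all genes. The median change of the 40 genes was -0.30 in the deposited values and -0.008 after quantile normalization, against -0.01 and 0.02 over all genes. The genes left when the dimmest 40% were dropped, whose median level of 6.45 to 6.95 per array was still below that of the replication genes (8.18 to 8.88), had medians of -0.29 and -0.007, and 37.1% of them fell in the deposited values. The falls among the replication genes were 15 of 40, or 37.5%. Quantile normalization moved the change of each gene by -0.04 to 0.40, with a median of 0.28, while the distance from the lowest to the highest change was 1.99 before and 1.79 after it.

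Genes that passed in both scalings were E2f2 and Rrm2, higher in WT LMPP, and Mcm2, Pola1 and Chaf1b, lower. Of these, E2f2 and Chaf1b passed under each of the 15 alternative settings. The settings are not independent: leaving out either knockout array gave the same fit as using only the 4 arrays compared. The settings without suffix s or x kept the probe sets of these genes. Groups of arrays did not overlap for 32 of the 40 genes: 7 lay higher on both WT LMPP arrays and 25 lower, against 32.4% and 39.3% of all genes. Leaving out WT LSK FLT3- replicate 1 left 3 falls and 1 rise, and leaving out replicate 2 left 6 falls and 1 rise. Markers of other cells moved with this comparison too, where 23.7% of all genes fell and 10.4% rose. Of 9 erythroid genes measured 6 fell and 3 rose. The summed erythroid level was 11.45 to 11.89 in WT LSK FLT3- and 10.48 to 10.52 in WT LMPP. Of 8 megakaryocyte genes 6 fell (9.19 to 9.25 against 7.41 to 7.48). The part of these markers in the result was not tested.

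**Figure D2:**
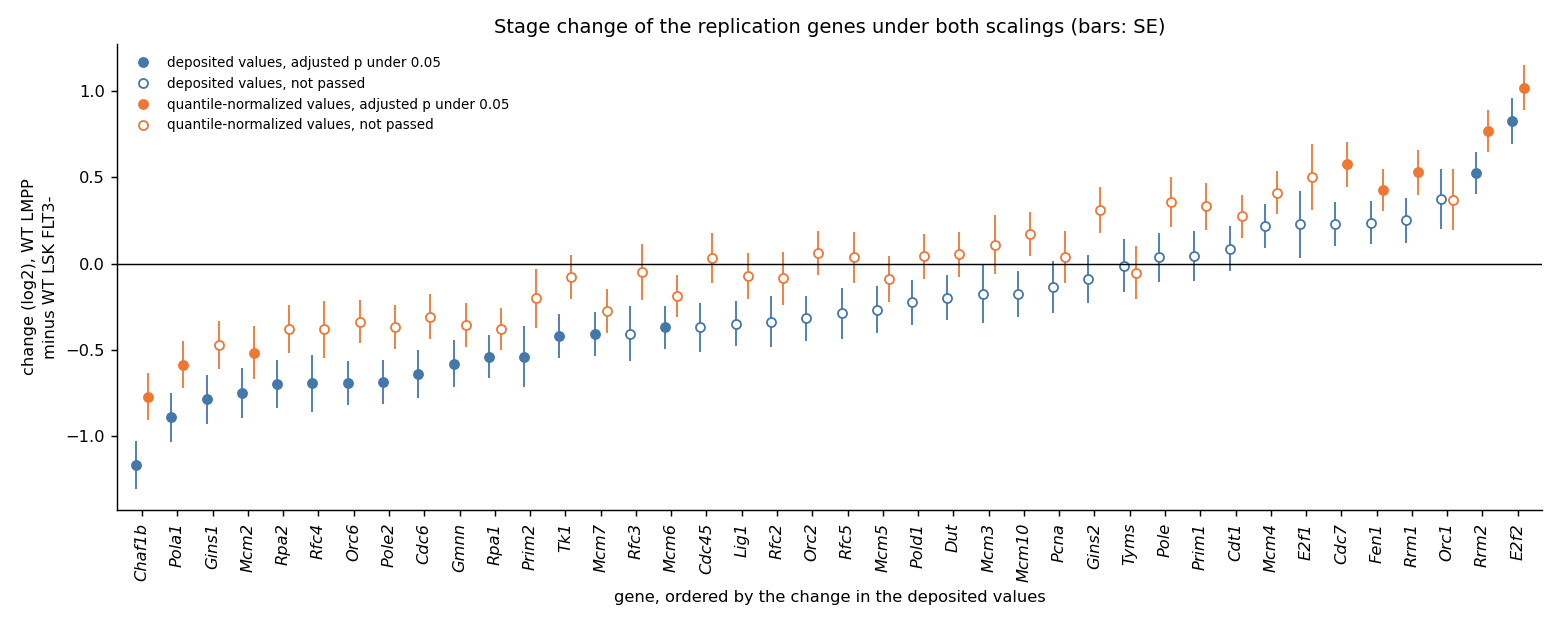
Change from WT LSK FLT3- to WT LMPP (log2, vertical axis; bars are the SE of the fit, 2 arrays a group) for each of the 40 genes, ordered by the change in the deposited values; blue is deposited, orange quantile-normalized, and filled points have an adjusted p under 0.05. Quantile normalization lifts most genes, and the filled points go from 15 low and 2 high to 3 low and 5 high.

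Origin licensing had 3 of 6 genes lower in WT LMPP and none higher in the deposited values. Over all genes 23.7% were lower and 10.4% higher, and 37.1% and 9.16% of those left without the dimmest 40%. The counts were 0 lower and 0 higher after quantile normalization, next to 10.1% and 9.1% of all genes. Orc6, a subunit of the origin recognition complex, stood at 8.05 and 7.93 in WT LSK FLT3-, 7.32 and 7.28 in WT LMPP, and 7.35 and 7.34 in the knockout. Both LMPP groups lay below the LSK FLT3- arrays with no overlap, and the wild-type change was -0.69 (SE 0.13, adjusted p = 0.00400), or -0.34 (adjusted p = 0.0998) after quantile normalization. Cdc6, which brings the helicase to the origin, stood at 8.37 and 8.32 in WT LSK FLT3-, 7.57 and 7.84 in WT LMPP, and 7.90 and 7.90 in the knockout. It fell by 0.64 (SE 0.14, adjusted p = 0.00897), and the change after quantile normalization was -0.31 (adjusted p = 0.145). Gmnn, geminin, which inhibits Cdt1, stood at 10.42 and 10.41 in WT LSK FLT3-, 9.74 and 9.94 in WT LMPP, and 10.30 and 10.19 in the knockout. In the deposited values the knockout arrays lay between the wild-type groups, whereas after quantile normalization they read 10.39 and 10.28 against 10.28 and 10.27 in WT LSK FLT3-. The wild-type change was -0.58 (SE 0.13, adjusted p = 0.0116), or -0.35 (adjusted p = 0.0906) after quantile normalization.

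Orc2, another subunit of the origin complex, stood at 7.66 and 7.57 in WT LSK FLT3-, 7.24 and 7.36 in WT LMPP, and 7.08 and 7.20 in the knockout. Its difference of -0.32 (adjusted p = 0.0919) did not pass and was 0.06 after quantile normalization. Cdt1, the loader that geminin holds back, differed by 0.09 (adjusted p = 0.621) and Orc1, the ATPase subunit of the complex, by 0.38 (adjusted p = 0.124), and neither passed in either scaling in its brightest probe set. Another probe set of each fell: one of Cdt1 with a mean level of 8.25 by 0.71 (SE 0.14, adjusted p = 0.00639 over all probe sets), and one of Orc1 with a mean level of 4.61, next to 4.63 for the brightest, by 0.77 (SE 0.17, adjusted p = 0.0115). The calls of Orc6, Cdc6 and Gmnn were lost without WT LSK FLT3- replicate 1 (adjusted p 0.0549, 0.0799 and 0.0856), those of Cdc6 and Gmnn also without WT LSK FLT3- replicate 2 (0.0626 and 0.0847), and that of Gmnn without WT LMPP replicate 1 (0.0508).

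The MCM helicase, the ring that unwinds DNA, had 3 of 6 subunits lower and none higher, where 23.7% and 10.4% of all genes were. Of the genes left without the dimmest 40%, 37.1% were lower and 9.16% higher. The counts were 1 lower and 0 higher after quantile normalization, next to 10.1% and 9.1% of all genes. Mcm2 stood at 10.23 and 10.18 in WT LSK FLT3-, 9.60 and 9.31 in WT LMPP, and 9.57 and 9.73 in the knockout. All 4 LMPP arrays lay below both LSK FLT3- arrays, and Mcm2 fell by 0.75 (SE 0.15, adjusted p = 0.00540), a 1.68-fold lower level, and by 0.51 (SE 0.15, adjusted p = 0.0484) after quantile normalization. Its window above held a CCAAT box. Mcm7 stood at 12.26 and 12.26 in WT LSK FLT3-, 11.92 and 11.78 in WT LMPP, and 11.99 and 11.93 in the knockout. Mcm6 stood at 11.22 and 11.28 in WT LSK FLT3-, 10.86 and 10.90 in WT LMPP, and 10.95 and 10.96 in the knockout. These 2 subunits shifted less than Mcm2: Mcm7 by -0.41 (SE 0.13, adjusted p = 0.0375) and Mcm6 by -0.37 (SE 0.12, adjusted p = 0.0469). After quantile normalization neither passed (-0.27, adjusted p = 0.180, and -0.19, adjusted p = 0.326). Another Mcm6 probe set, with a mean level of 10.90 against 11.03, differed by -0.02 (adjusted p = 0.942 over all probe sets). In the mean of its probe sets Mcm6 did not pass either (-0.06, adjusted p = 0.711).

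The other helicase subunits did not pass in either scaling. Mcm3 stood at 8.97 and 9.44 in WT LSK FLT3-, 8.96 and 9.10 in WT LMPP, and 9.20 and 9.20 in the knockout. Its wild-type groups overlapped, and both knockout arrays lay above both WT LMPP arrays. Its difference was -0.18 in the deposited values and 0.11 after quantile normalization. Mcm5 differed by -0.27 (adjusted p = 0.158) and Mcm4 by 0.22 (adjusted p = 0.209). The Mcm2 call was lost without WT LSK FLT3- replicate 1 (adjusted p = 0.0571), that of Mcm7 without either LSK FLT3- array (0.175 and 0.171) or WT LMPP replicate 2 (0.119), and that of Mcm6 without any 1 of the 6 arrays (0.0514 to 0.226).

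Among the origin firing genes 1 of 5 fell and none rose in the deposited values, where 23.7% and 10.4% of all genes did. Of the genes left without the dimmest 40%, 37.1% fell and 9.16% rose. The counts were 0 falls and 1 rise after quantile normalization, next to 10.1% and 9.1% of all genes. Gins1, a subunit of the GINS complex that joins the MCM ring to make the active helicase, stood at 8.93 and 8.67 in WT LSK FLT3-, 7.95 and 8.08 in WT LMPP, and 8.55 and 8.46 in the knockout. The knockout arrays lay between the wild-type groups in the deposited values, and overlapped WT LSK FLT3- after quantile normalization (8.69 and 8.59 against 8.72 and 8.43). Gins1 fell by 0.79 (SE 0.14, adjusted p = 0.00398) in WT LMPP, and its change after quantile normalization was -0.47 (SE 0.14, adjusted p = 0.0516). Cdc7, the kinase that fires licensed origins together with Dbf4, stood at 7.96 and 7.90 in WT LSK FLT3-, 8.23 and 8.09 in WT LMPP, and 8.37 and 8.44 in the knockout. Its difference of 0.23 (SE 0.13, adjusted p = 0.196) did not pass in the deposited values, and after quantile normalization it rose by 0.58 (SE 0.13, adjusted p = 0.0184).

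Cdc45, which completes the active helicase, stood at 6.98 and 6.88 in WT LSK FLT3-, 6.70 and 6.43 in WT LMPP, and 6.76 and 6.66 in the knockout. Its difference was -0.37 (adjusted p = 0.0764) and, after quantile normalization, 0.03. Gins2 stood at 6.85 and 6.89 in WT LSK FLT3-, 6.69 and 6.87 in WT LMPP, and 6.86 and 7.07 in the knockout, with a difference of -0.09 that was 0.31 (adjusted p = 0.147) after quantile normalization. Mcm10, which helps the helicase start, stood at 8.02 and 8.08 in WT LSK FLT3-, 7.82 and 7.94 in WT LMPP, and 7.83 and 8.0 in the knockout, with -0.17 and 0.17. These 3 genes changed sign with the scaling and passed in neither. The Gins1 call was lost without WT LSK FLT3- replicate 1 (adjusted p = 0.0557), and Cdc45 passed without WT LMPP replicate 1 (-0.50, adjusted p = 0.0449).

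The polymerases and primase had 3 of 6 genes lower and none higher, where 23.7% and 10.4% of all genes were. Of the genes left without the dimmest 40%, 37.1% were lower and 9.16% higher. The counts were 1 lower and 0 higher after quantile normalization, next to 10.1% and 9.1% of all genes. Pola1, the catalytic subunit of the polymerase that starts each new strand, stood at 9.18 and 8.97 in WT LSK FLT3-, 8.10 and 8.27 in WT LMPP, and 8.41 and 8.47 in the knockout. It fell by 0.89 (SE 0.14, adjusted p = 0.00201), a 1.85-fold lower level, and by 0.59 (SE 0.14, adjusted p = 0.0211) after quantile normalization. Its window above holds the single E2F motif from base -138. Pole2, an accessory subunit of the leading-strand polymerase, stood at 8.79 and 8.72 in WT LSK FLT3-, 8.09 and 8.05 in WT LMPP, and 8.09 and 7.95 in the knockout. The 4 LMPP arrays lay close together below the LSK FLT3- arrays, and Pole2 fell by 0.68 (SE 0.13, adjusted p = 0.00452), with -0.37 (adjusted p = 0.0827) after quantile normalization. Prim2, the large primase subunit, stood at 8.24 and 8.11 in WT LSK FLT3-, 7.56 and 7.72 in WT LMPP, and 7.45 and 7.96 in the knockout. It fell by 0.54 (SE 0.18, adjusted p = 0.0458), with -0.20 (adjusted p = 0.467) after quantile normalization, and its knockout arrays had the widest spread of the 40 genes in that group (SD 0.359).

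The catalytic subunits of both main replicative polymerases did not pass in their brightest probe sets. Pold1, of the lagging-strand polymerase, stood at 9.28 and 9.24 in WT LSK FLT3-, 8.99 and 9.08 in WT LMPP, and 9.04 and 9.21 in the knockout, a difference of -0.22 (adjusted p = 0.214), or 0.04 after quantile normalization. It passed when its probe sets were averaged (-0.42, adjusted p = 0.0187) and in its probe set without suffix s or x, explained below (-0.62, adjusted p = 0.00824). Pole, of the leading-strand polymerase, differed by 0.04 (adjusted p = 0.856) and Prim1, the small primase subunit, by 0.05 (adjusted p = 0.828). The Pole2 call was lost without WT LSK FLT3- replicate 1 (adjusted p = 0.0554), that of Prim2 without either LSK FLT3- array or either WT LMPP array (0.0654 to 0.224), and those of Pola1, Pole2 and Prim2 when the probe sets of a gene were averaged (-0.33, -0.23 and -0.20).

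In the clamp, clamp loader and RPA group 3 of 7 genes fell and none rose, where 23.7% and 10.4% of all genes did. Of the genes left without the dimmest 40%, 37.1% fell and 9.16% rose. The counts were 0 falls and 0 rises after quantile normalization, next to 10.1% and 9.1% of all genes. Rpa2 and Rpa1, subunits of the complex that coats single-stranded DNA, both fell. Rpa2 stood at 8.84 and 8.94 in WT LSK FLT3-, 8.29 and 8.10 in WT LMPP, and 8.43 and 8.30 in the knockout, with -0.70 (SE 0.14, adjusted p = 0.00576) and, after quantile normalization, -0.38 (adjusted p = 0.0985). Rpa1 stood at 11.80 and 11.74 in WT LSK FLT3-, 11.20 and 11.27 in WT LMPP, and 11.37 and 11.41 in the knockout, with -0.54 (SE 0.12, adjusted p = 0.0115) and -0.38 (adjusted p = 0.0665). Both genes were lower on all 4 LMPP arrays than on either LSK FLT3- array. Rfc4, a subunit of the loader that opens the clamp, stood at 8.57 and 8.59 in WT LSK FLT3-, 8.01 and 7.76 in WT LMPP, and 7.57 and 7.95 in the knockout. It fell by 0.69 (SE 0.16, adjusted p = 0.0124), with -0.38 (adjusted p = 0.151) after quantile normalization.

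Pcna, the sliding clamp, stood at 11.28 and 11.59 in WT LSK FLT3-, 11.34 and 11.25 in WT LMPP, and 11.67 and 11.46 in the knockout. The wild-type groups overlapped, both knockout arrays lay above both WT LMPP arrays, and the wild-type difference of -0.13 (adjusted p = 0.517) was 0.04 after quantile normalization. Rfc5 stood at 8.15 and 8.34 in WT LSK FLT3-, 7.91 and 8.0 in WT LMPP, and 7.99 and 8.29 in the knockout, a difference of -0.29 (adjusted p = 0.167), or 0.04 after quantile normalization. Of the other loader subunits Rfc2 differed by -0.34 (adjusted p = 0.108) and Rfc3 by -0.41 (adjusted p = 0.0816). Neither passed in either scaling in its brightest probe set. Another Rfc3 probe set, with a mean level of 5.68 against 5.92, fell by 0.76 (SE 0.16, adjusted p = 0.00831 over all probe sets). When its probe sets were averaged Rfc3 fell by 0.58 (adjusted p = 0.0100). The calls of Rpa1 and Rfc4 were lost without either LSK FLT3- array (adjusted p 0.0742 to 0.0984), that of Rfc4 without WT LMPP replicate 2 (0.0532), and that of Rpa2 without WT LSK FLT3- replicate 2 (0.0650).

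The joining of lagging-strand pieces was represented by 2 genes, and neither passed in the deposited values. Fen1, the nuclease that trims the flap, stood at 11.43 and 11.43 in WT LSK FLT3-, 11.68 and 11.65 in WT LMPP, and 11.71 and 11.80 in the knockout. The LMPP arrays were all higher, by 0.24 (SE 0.12, adjusted p = 0.169) in the wild type, and after quantile normalization Fen1 rose by 0.43 (SE 0.12, adjusted p = 0.0460). Lig1, the ligase that seals the nick, stood at 9.27 and 9.27 in WT LSK FLT3-, 9.02 and 8.83 in WT LMPP, and 8.93 and 8.98 in the knockout. Its difference was -0.35 (SE 0.13, adjusted p = 0.0702), and -0.07 after quantile normalization.

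Chaf1b, a subunit of the chromatin assembly factor that places histones behind the fork, had the largest fall among the brightest probe sets. Dimmer probe sets of Rpa2 (-1.44), Mcm3 (-1.35), Rrm1 (-1.34) and Mcm7 (-1.32) fell further. Chaf1b stood at 7.46 and 7.48 in WT LSK FLT3-, 6.29 and 6.32 in WT LMPP, and 6.49 and 6.77 in the knockout. The fall of 1.17 (SE 0.14, adjusted p = 0.000636) was a 2.24-fold lower level, larger than the gap between the arrays within any group. After quantile normalization the arrays read 7.17 and 7.20, 6.42 and 6.41, and 6.66 and 6.94 in the same order, and the fall was 0.77 (SE 0.14, adjusted p = 0.00723).

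The nucleotide supply genes were divided. Rrm2 stood at 9.86 and 9.81 in WT LSK FLT3-, 10.35 and 10.37 in WT LMPP, and 10.44 and 10.51 in the knockout. All LMPP arrays lay above the LSK FLT3- arrays, and Rrm2 rose by 0.53 (SE 0.12, adjusted p = 0.0123) in the deposited values and by 0.77 (SE 0.12, adjusted p = 0.00441) after quantile normalization. Rrm1, the large subunit of the same enzyme, stood at 9.55 and 9.62 in WT LSK FLT3-, 9.85 and 9.83 in WT LMPP, and 10.09 and 9.90 in the knockout. It differed by 0.25 (SE 0.13, adjusted p = 0.170) in the deposited values and rose by 0.53 (SE 0.13, adjusted p = 0.0269) after quantile normalization. Tk1, the cytosolic thymidine kinase of the salvage route, stood at 8.04 and 8.18 in WT LSK FLT3-, 7.68 and 7.70 in WT LMPP, and 8.18 and 8.10 in the knockout. It fell by 0.42 (SE 0.13, adjusted p = 0.0339), with -0.08 (adjusted p = 0.728) after quantile normalization, and its knockout arrays lay at the level of WT LSK FLT3- in the deposited values but above it after quantile normalization (8.32 and 8.23 against 7.79 and 7.93).

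Dut, which removes dUTP, stood at 9.97 and 9.94 in WT LSK FLT3-, 9.78 and 9.74 in WT LMPP, and 10.07 and 9.89 in the knockout, a difference of -0.20 (adjusted p = 0.264), or 0.05 after quantile normalization. Tyms, thymidylate synthase, averaged 4.32 over the arrays, near the array median, and its difference of -0.01 (adjusted p = 0.962) comes from a probe set in the compressed low range. The Rrm2 call was lost without either LSK FLT3- array (adjusted p 0.0815 and 0.0999), and that of Tk1 without any 1 of the WT LMPP or LSK FLT3- arrays (0.0691 to 0.216).

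The 2 activating E2F factors lay low on the arrays. E2f2 stood at 5.20 and 5.09 in WT LSK FLT3-, 6.00 and 5.95 in WT LMPP, and 5.72 and 5.89 in the knockout. All LMPP arrays were higher, and E2f2 rose by 0.83 (SE 0.13, adjusted p = 0.00227), a 1.77-fold higher level, and by 1.02 (SE 0.13, adjusted p = 0.00168) after quantile normalization. E2f1 stood at 5.55 and 5.84 in WT LSK FLT3-, 5.69 and 6.16 in WT LMPP, and 5.75 and 6.06 in the knockout. Its groups overlapped in the deposited values, and the difference of 0.23 (SE 0.19, adjusted p = 0.382) did not pass in either scaling. Another E2f1 probe set, with a mean level of 5.13 against 5.84, fell by 0.67 (SE 0.15, adjusted p = 0.0120 over all probe sets).

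The choice of probe set mattered for some of these genes. Of the 40 genes 32 had other probe sets with the same symbol, 49 in all, and 22 of the 49 differed in sign from the brightest one in this comparison, in 0 cases with both past the threshold (adjusted over all probe sets here). Of the 30 others with a mean level above 5, 9 differed in sign. Rrm1 read 0.25 in its brightest probe set and -1.34 (SE 0.16, adjusted p = 0.000583) in one with a mean level of 6.45. Mcm7 read -0.41 in its brightest and -1.32 (SE 0.15, adjusted p = 0.000536) in another, so these differed in size but not in sign. Mcm3 had probe sets that opposed each other past the threshold, at -1.35 (adjusted p = 0.00103), -0.61 (adjusted p = 0.0107) and 0.87 (adjusted p = 0.00274), beside -0.18 in the brightest. Fen1 read 0.24 in its brightest and -0.44 (adjusted p = 0.0414) in its other probe set. Rrm2 read 0.53 in its brightest probe set, 0.37 (adjusted p = 0.0781) in the next and -0.52 (adjusted p = 0.101) in the dimmest, whereas both Mcm2 probe sets agreed at -0.75 and -0.72 (adjusted p = 0.00588). The second probe sets of Chaf1b (0.29, mean level 3.36), Pola1 (0.24, 2.96) and E2f2 (-0.05, 4.42) lay in the low range and did not pass.

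In 9 of the 40 genes, Fen1, Mcm2, Mcm3, Mcm7, Pold1 and Rrm2 among them, the brightest probe set had a suffix s or x, by which Affymetrix marks sets whose probes can also match other transcripts. With the brightest probe set of another suffix in those genes, a setting chosen after seeing the data, 1 gene rose and 17 fell in the deposited values, and 4 rose and 3 fell after quantile normalization. Rrm2 did not pass in that setting in the deposited values (0.37, adjusted p = 0.0634) and rose after quantile normalization (0.73, adjusted p = 0.00882). Fen1 fell in the deposited values (-0.44, adjusted p = 0.0325), as did Mcm3 (-0.61, adjusted p = 0.00826). Mcm2 fell in the deposited values (-0.72, adjusted p = 0.00451) and did not pass after quantile normalization (-0.44, adjusted p = 0.0578). Mcm7 fell in both scalings (-1.32, adjusted p = 0.000420, and -1.05, adjusted p = 0.00295), the lowest value of the 40 genes in that setting.

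**Figure D3:**
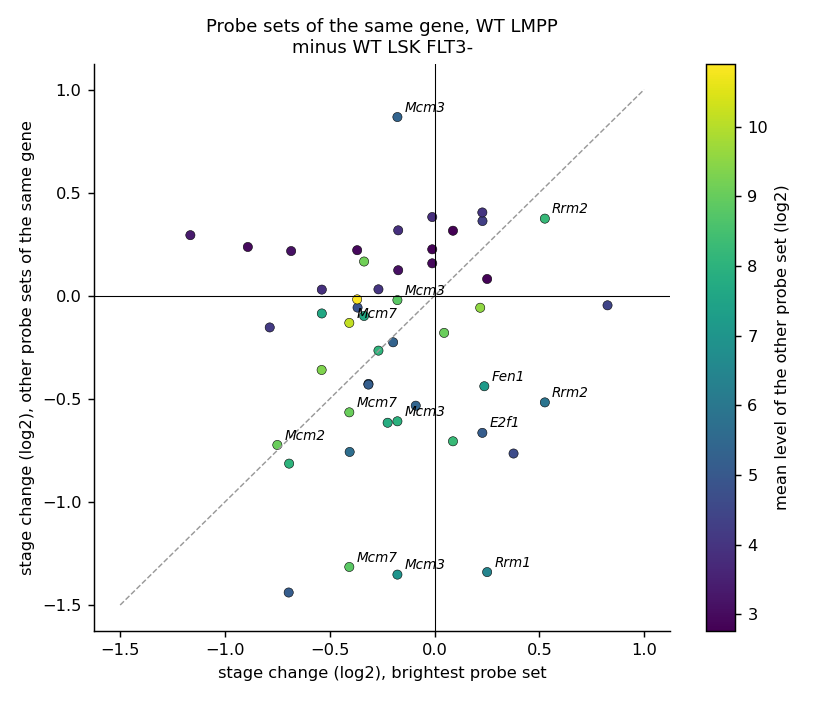
Change from WT LSK FLT3- to WT LMPP (log2, deposited values) in the brightest probe set of a gene (horizontal axis) and in its other probe sets (vertical axis), coloured by the mean level of the other probe set; the dashed line marks equal change. Points such as Rrm1 (0.25 against -1.34) and the Mcm3 sets lie far from the line, and many points near 0 on the vertical axis are dim.

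The second comparison, E2A-KO LMPP against WT LMPP, asks which expression changes the loss of E2A brings at the LMPP stage, the stated goal of the experiment. No replication gene passed: 0 rose and 0 fell in the deposited values and 0 after quantile normalization (limma). Over all genes 0.379% rose and 0.995% fell (0.346% and 0.885% after quantile normalization). At an unadjusted p under 0.05, 5 of the 40 differed, where 2665 of all 18194 genes did, a similar share. Of the 5, Gins1, Tk1, Gmnn and Chaf1b were higher and Rfc3 lower. Of the 40 genes 29 lay above 0, with a median of 0.10, and 32 with a median of 0.13 after quantile normalization, where 8591 of 18194 genes in the deposited values lay above 0. On single arrays 19 of the 40 lay higher on both knockout arrays than on both WT LMPP arrays and 4 lower, against 18.8% and 22.8% of all genes.

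Gins1, at 8.55 and 8.46 in the knockout against 7.95 and 8.08 in WT LMPP, had the highest difference, 0.50 (SE 0.14, adjusted p = 0.153). Tk1, at 8.18 and 8.10 against 7.68 and 7.70, differed by 0.45 (SE 0.13, adjusted p = 0.150). Gmnn, at 10.30 and 10.19 against 9.74 and 9.94, differed by 0.41 (SE 0.13, adjusted p = 0.201). These 3 genes had both knockout arrays above both wild-type arrays, as did Chaf1b with 0.33 (SE 0.14, adjusted p = 0.327). With a variance trend and robust estimation Gmnn (adjusted p = 0.0178) and Gins1 (adjusted p = 0.0333) passed. At the other end was Rfc3, at 5.32 and 5.63 against 5.94 and 5.95, with -0.46 (SE 0.16, adjusted p = 0.226), followed by Mcm4 with -0.21 (adjusted p = 0.50). The other probe set of each had the opposite sign and did not pass: Rfc3 at 0.14 (mean level 5.68) and Mcm4 at 0.07 (mean level 9.55). Of the 49 other probe sets of the replication genes, 18 differed in sign from the brightest one in this comparison.

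The genes that passed in the wild-type comparison under both scalings did not pass between genotypes. Beside Chaf1b, Mcm2 differed by 0.19 (adjusted p = 0.594), Pola1 by 0.26 (adjusted p = 0.437), Rrm2 by 0.11 (adjusted p = 0.738) and E2f2 by -0.17 (adjusted p = 0.604). By role, 5 of 5 origin firing genes, 5 of 6 MCM subunits, 4 of 6 licensing genes, 3 of 6 polymerase and primase genes, 5 of 7 clamp, loader and RPA genes, both joining genes and 4 of 5 nucleotide supply genes lay above 0 in the deposited values, and both E2F genes lay below. After quantile normalization 5 of 6 polymerase and primase genes and E2f1 lay above 0, and the other counts were equal. The unadjusted 95% interval of every one of the 40 differences lay within a 2-fold change, from -0.83 at the lowest bound to 0.82 at the highest. A miss of the threshold does not show that the genotypes are alike within that range. Markers of mature myeloid cells moved with the genotype, with 7 of 10 lower in E2A-KO LMPP, where 0.995% of all genes were lower. Their summed level was 10.96 to 11.18 against 12.20 to 12.24 in WT LMPP, and their part in the differences was not tested.

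**Figure D4:**
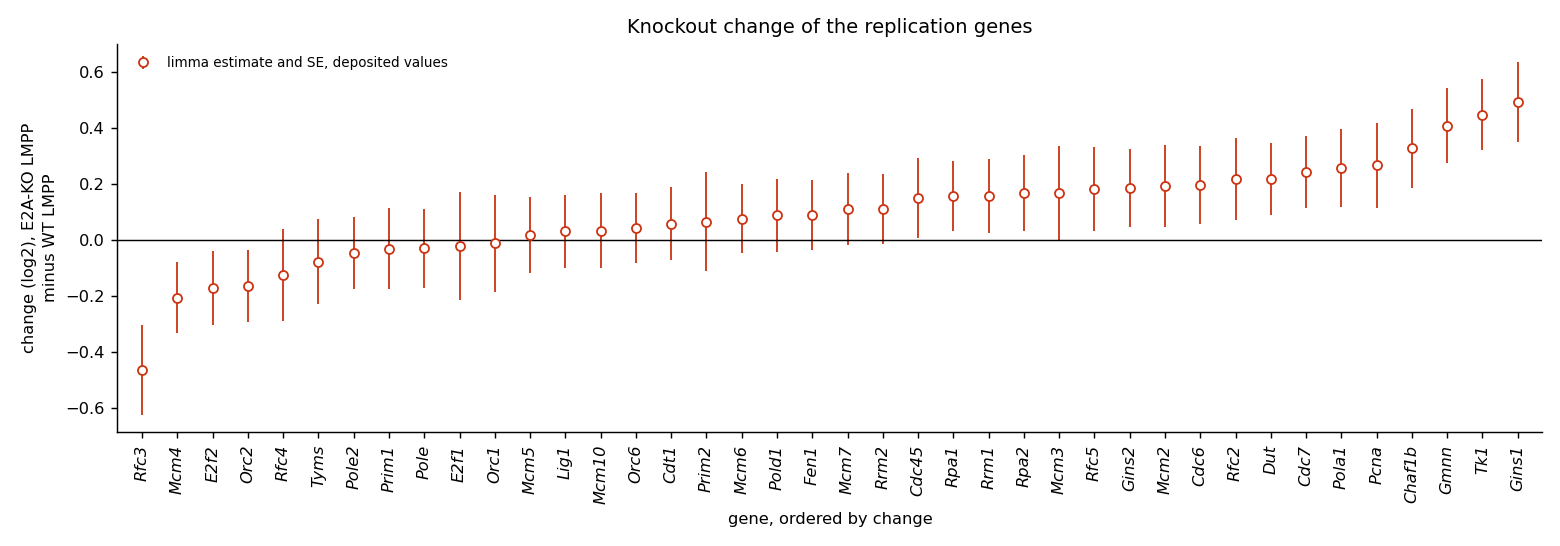
Difference between E2A-KO LMPP and WT LMPP (log2 of deposited values, vertical axis; points are fit estimates and bars their SE, 2 arrays a group) for the 40 genes, ordered by size. The estimates run from -0.46 (Rfc3) to 0.50 (Gins1), 29 lie above 0, and no open point passed the threshold.

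The third comparison, of E2A-KO LMPP with WT LSK FLT3-, shares its arrays with both others. In the deposited values 4 genes rose (Cdc7, Rrm1, Rrm2 and E2f2) and 11 fell (Orc2, Orc6, Cdc6, Mcm2, Pola1, Pole2, Rfc3, Rfc4, Rpa1, Rpa2 and Chaf1b), where 11% of all genes rose and 26.5% fell. After quantile normalization 6 rose, Gins2 and Fen1 joining the 4, and 0 fell, where 8.76% rose and 11.1% fell over all genes. The median moved from -0.14 to 0.16, so that its sign depends on the scaling. Without E2A-KO LMPP replicate 1 there were 7 falls, without WT LSK FLT3- replicate 1 there were 4 falls and 2 rises, and without WT LSK FLT3- replicate 2 there were 5 falls and 0 rises. None of these 15 calls passed under all 15 alternative settings. Of the 49 other probe sets, 26 differed in sign from the brightest one, in 0 cases with both past the threshold. Among the 30 with a mean level above 5, 11 differed in sign. Another Rrm1 probe set, with a mean level of 6.45, fell by 1.08 (limma, adjusted p = 0.00130 over all probe sets). Over all probe sets the brightest one of Rrm1 did not pass (adjusted p = 0.0506).

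Side by side, Cdc7 was 0.23 from WT LSK FLT3- to WT LMPP and 0.47 (adjusted p = 0.0198) to E2A-KO LMPP, and after quantile normalization 0.58 and 0.86 (adjusted p = 0.00329). Rrm2 was 0.53 and 0.64 (adjusted p = 0.00476), or 0.77 and 0.89 (adjusted p = 0.00213) after quantile normalization. E2f2 was 0.83 and 0.65 (adjusted p = 0.00569), and 1.02 and 0.87 (adjusted p = 0.00326). These 3 genes lay above 0 in both genotypes and both scalings, and Cdc7 did not pass in WT LMPP in the deposited values (adjusted p = 0.196). Chaf1b was -1.17 and -0.84 (adjusted p = 0.00247), and -0.77 and -0.39 (adjusted p = 0.0869) after quantile normalization. Rfc3 was -0.41 and -0.87 (adjusted p = 0.00377), and -0.05 and -0.53 (adjusted p = 0.0515). Gins1 (-0.79 and -0.29) and Tk1 (-0.42 and 0.03) did not pass in the knockout against WT LSK FLT3-, nor did they after quantile normalization (0.07, adjusted p = 0.799, and 0.42, adjusted p = 0.0525), and the difference between genotypes is the test given above. The calls of Cdc7 were lost without E2A-KO LMPP replicate 2 and without each LSK FLT3- array (adjusted p 0.0699 to 0.132), and those of Rrm2 and E2f2 without WT LSK FLT3- replicate 2 (0.0527 and 0.0644).

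Other genes of the same pathways were read from lists. Changes of the genes named from these lists are given for the deposited values only. Of 39 other replication fork and origin genes measured, 9 fell (23.1%) and 3 rose (7.69%) in WT LMPP against WT LSK FLT3- (median -0.21), next to 23.7% and 10.4% of all genes. After quantile normalization 2 fell (5.13%) and 6 rose (15.4%; median 0.11), next to 10.1% and 9.1%. Dbf4, the partner of the Cdc7 kinase, stood at 7.49 and 7.30 in WT LSK FLT3- and 8.09 and 8.11 in WT LMPP, and rose by 0.71 (adjusted p = 0.00559). Uhrf1, which carries DNA methylation through replication, rose by 0.59 (adjusted p = 0.0135) and Supt16, a histone chaperone subunit, by 0.42 (adjusted p = 0.0477). Dscc1, of an alternative clamp loader, fell by 0.92 (adjusted p = 0.00276), Pole4, a polymerase epsilon subunit, by 0.83 (adjusted p = 0.00270), and Pola2, the partner subunit of Pola1, by 0.80 (adjusted p = 0.00199), from 7.76 and 7.71 to 6.97 and 6.90. Since 2 genes of this list fell after quantile normalization, not all of these named falls passed there.

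Of 31 other nucleotide genes, 16 fell (51.6%) and 1 rose (median -0.39), next to 23.7% and 10.4% of all genes and 37.1% and 9.16% of those left without the dimmest 40%. After quantile normalization 4 fell (12.9%) and 2 rose (median -0.09), next to 10.1% and 9.1% of all genes. Tk2, the mitochondrial thymidine kinase, fell by 1.40 (adjusted p = 0.00248), Rrm2b, the reductase subunit used outside S phase, by 1.07 (adjusted p = 0.00100), and Adk, adenosine kinase, by 0.75 (adjusted p = 0.00323). Rrm2b stood at 7.34 and 7.47 in WT LSK FLT3- and 6.39 and 6.29 in WT LMPP, the opposite direction to Rrm2. Shmt1, of folate metabolism, rose by 0.49 (adjusted p = 0.0188). Of 11 other E2F and RB family genes, 5 fell (45.5%) and 1 rose, and after quantile normalization 1 fell (9.09%) and 1 rose, with the shares of all genes as given above. E2f5, a repressing E2F, stood at 7.56 and 7.88 in WT LSK FLT3- and 9.40 and 9.30 in WT LMPP, a rise of 1.63 (adjusted p = 0.000161). Rbl2, an RB family protein of resting cells, fell by 0.88 (adjusted p = 0.00186), and E2f3, an activating E2F, by 0.73 (adjusted p = 0.00577). Since 1 gene of this list fell after quantile normalization, Rbl2 and E2f3 did not both pass there.

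Genes of mitosis were the fourth list. Of 14 measured, 7 rose and 0 fell in WT LMPP against WT LSK FLT3- (median 0.38), and 11 rose and 0 fell after quantile normalization (median 0.72), where 10.4% and 9.1% of all genes rose. Bub1b, a spindle checkpoint kinase, stood at 9.05 and 8.89 in WT LSK FLT3- and 9.82 and 9.92 in WT LMPP, a rise of 0.90 (adjusted p = 0.00154). Plk1, a mitotic kinase, rose by 0.63 (adjusted p = 0.00904), and Mki67, which marks dividing cells, by 0.61 (adjusted p = 0.00648). The difference between the mitosis and replication lists was not tested. In E2A-KO LMPP against WT LMPP none of the 4 lists had a gene past the threshold (limma), with 0 of 14 mitosis genes above 0 (median -0.15) and 25 of 39 fork genes above 0 (median 0.06). At an unadjusted p under 0.05 there were 7 fork genes, 1 nucleotide gene, 0 E2F and RB genes and 1 mitosis gene. The lists held 39, 31, 11 and 14 genes in that order, and 2665 of all 18194 genes met that threshold.

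**Figure D5:**
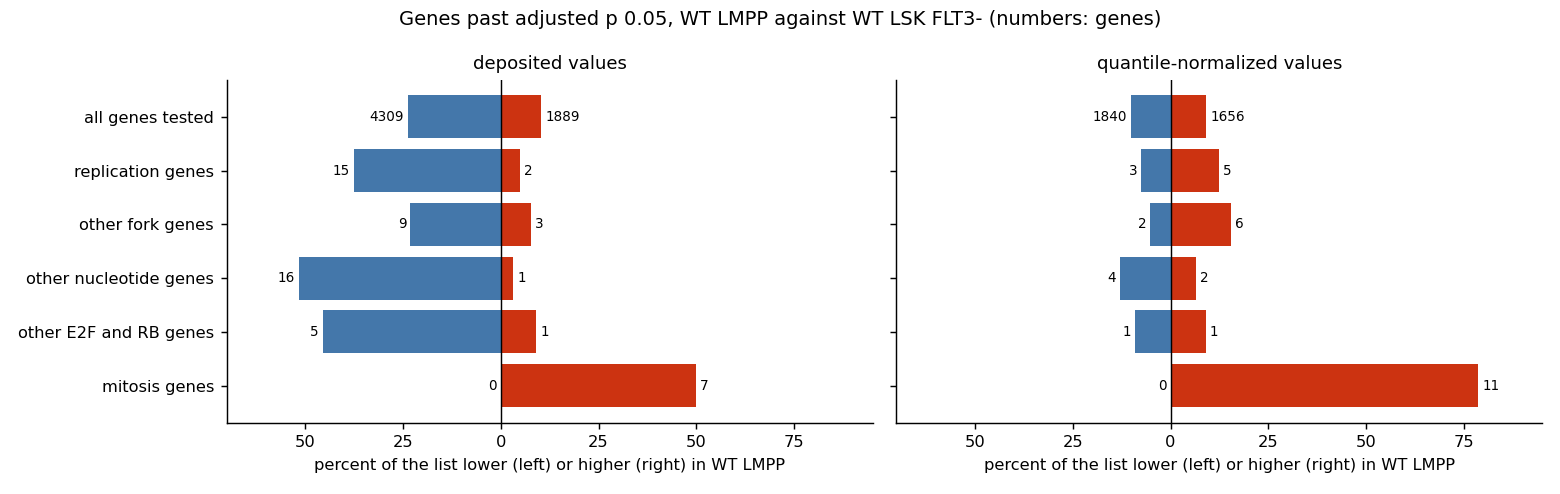
Share of each list past an adjusted p of 0.05 in WT LMPP against WT LSK FLT3- (percent, horizontal axis; lower to the left, higher to the right; numbers are genes), for the deposited (left) and quantile-normalized values (right). The replication genes go from 15 lower and 2 higher to 3 lower and 5 higher, and the mitosis genes have 0 lower in both panels.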

How the data were processed

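RNA of sorted cells was hybridised to 6 Affymetrix 3' arrays after 2 rounds of amplification, per the labels' protocols, which favours transcript ends. The deposited values are intensity values on a linear scale that the authors made by RMA (version not given), as the submitters' processing notes name it. Whether 1 RMA run covered the 6 arrays is not stated. They run from 4.23 to 25594, and log2 was taken of the deposited intensities. Samples were grouped by their titles; a free-text label that calls every sample WT LMPP was set aside.

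Of 45101 probe sets, 34958 carry 1 gene symbol in the platform annotation, 932 several and 9211 none, and a gene is its brightest single-symbol probe set. limma 3.58.1 (R 4.3.3) fitted 1 mean per group on all 6 arrays, with 3 residual and 5.8 prior degrees of freedom; tests are two-sided, and p-values are adjusted by Benjamini and Hochberg over 18194 genes with a threshold of 0.05. Arrays have no read depth; their number limits the precision.

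The members and lists were chosen with earlier results of these data known. Values on every array are given for the 3 genes of each role with the largest change between the wild-type groups. They are also given for those past the threshold between genotypes, and those whose call or direction differs between scalings. From the other fork, nucleotide, E2F and RB, and mitosis lists up to 3 genes a direction past the threshold between the wild-type groups are named. Genes of the cell type marker lists were counted and not named. The model was tested on simulated data. Cell type marker lists were counted the same way. In the wild-type comparison 4 of 9 B lineage genes rose and 0 fell, and 2 of 8 T lineage genes rose and 2 fell. Of 10 stroma genes 3 rose and 1 fell, and of 10 mature myeloid genes 6 rose and 2 fell. Over all genes 10.4% rose and 23.7% fell. After quantile normalization 4 B lineage, 2 T lineage, 1 stroma and 7 mature myeloid genes rose, next to 9.1% of all genes. In the same order 0, 2, 1 and 2 fell, next to 10.1%. Between genotypes, in the deposited values, 1 B lineage gene fell, 1 T lineage gene rose and 0 stroma, erythroid or megakaryocyte genes passed. Over all genes 0.379% rose and 0.995% fell there. Alternatives changed the scaling, the dim-gene filter, the probe set rule, the variance model, a replicate block and the arrays used. Plots used matplotlib 3.10.9 (Python 3.11.15).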

Additional observations from a re-analysis of the deposited data

How the results depend on the processing

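Between the wild-type fractions the 2 rises became 5 with quantile normalization, 1 with the mean of all probe sets and 5 with a variance trend and robust estimation, and the 15 falls became 3 with quantile normalization. Without probe sets of suffix s or x, a setting added after seeing the data, there was 1 rise, and with quantile normalization as well 4 rises and 3 falls. Leaving out 1 array gave 1 to 2 rises and 3 to 14 falls; the low ends came without a LSK FLT3- array, which leaves 1 array to stand for that group. The median of -0.30 became -0.0080 with quantile normalization, -0.41 with median centring, -0.37 without suffix s or x, and -0.062 with quantile normalization as well; leaving out 1 array gave -0.33 to -0.25. Between genotypes the counts of 0 stayed at 0 under each setting but the variance trend with robust estimation, with 2 rises, and the median of 0.10 ranged from 0.07 to 0.14.

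For the knockout LMPP against WT LSK FLT3- the 4 rises became 2 with median centring and 1 when probe sets were averaged, the 11 falls became 0 with quantile normalization and 1 with that and no suffix s or x, and leaving out 1 array gave 0 to 4 rises and 4 to 11 falls. The median of -0.14 reversed to 0.16 with quantile normalization and to 0.063 with that and no suffix s or x, and was -0.27 with median centring and -0.24 without suffix s or x; leaving out 1 array gave -0.22 to -0.086. Fen1 reversed without suffix s or x (-0.44 in WT LMPP and -0.55 in the knockout, each against WT LSK FLT3-), where another probe set was read. Rrm1 reversed with the mean of all probe sets (-0.34 and -0.18), which adds one at -1.34 and -1.08 to the brightest. The -0.18 did not pass (limma, adjusted p = 0.205). In the main setting Fen1 passed in neither comparison, and Rrm1 only in that of the knockout. The cause of the other shifts was not tested.

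The sample titles number the arrays and do not say whether same-numbered arrays were paired. Deviations of same-numbered arrays correlated at 0.02, -0.02 and -0.04, which shows no shared shift but cannot exclude a pairing. In a fit with a replicate block the counts were 2 rises and 13 falls between the wild-type groups, 0 and 0 between genotypes, and 3 and 10 for the third comparison; in the first, the Mcm6 and Mcm7 calls were lost (adjusted p 0.0657 and 0.0504). Over all genes the falls between the wild-type groups were 4309, and 1840 with quantile normalization, 1815 with that and no suffix s or x, and 1897 and 1946 without either LSK FLT3- array; the 1889 rises were 1161 with median centring, 1142 without dim genes, and 473 and 503 without either LSK FLT3- array. The 69 rises and 181 falls between genotypes ranged from 19 to 162 and from 70 to 386, and for the third comparison the 2002 rises and 4820 falls ranged from 494 to 2424 and from 1993 to 6148.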
